A study of Homo sapiens with 2 samples.

Results

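Laminin chains and integrin subunits were examined in H9, an established line of human embryonic stem cells. The genes are those of the laminin chains LAMA, LAMB and LAMC and of the integrin alpha and beta subunits in a list of 37 symbols, which does not hold every gene of both families. All 37 were named on the arrays, among 22439 genes in all, and they comprised 11 laminin chains, 18 alpha subunits and 8 beta subunits. They were covered by 50 probes. RNA came from substate 1 cells at passage 35 and from substate 2 cells at passage 50, and each group was hybridised to 1 single-colour Agilent array. Both groups were the same line, grown in TeSR-E8 medium without feeder cells. The study moved the line from vitronectin to Matrigel at passage 35 and characterised the substates on Matrigel. Its text does not state the coat of each hybridised culture. In the study substate 2 was the state with more vimentin and less of the R-10G epitope, a keratan sulphate of pluripotent cells, and whether the hybridised cells had been sorted is not given in the sources used here. Substate, passage and time on Matrigel cannot be told apart. With 1 array per group there was no test between the substates, and no difference given here has a replicate check.

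Laminins are cross-shaped proteins of the basement membrane, each built from 1 alpha, 1 beta and 1 gamma chain. Integrins are receptors built from 1 alpha and 1 beta subunit that join the extracellular matrix to the actin or keratin skeleton, and the alpha subunit largely sets which ligand is bound. Human pluripotent stem cells make their own laminin and attach to laminin and vitronectin coats through integrins. Matrigel, an extract of a mouse tumour, is itself rich in laminin and type IV collagen. The arrays measured the messenger RNA of the human cells and not the coat.

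The signal of each probe is given as log2 of the scanner's processed intensity minus the 75th percentile of its own array, so 0 is the level below which 75% of the probes of that array lie. A difference is substate 2 minus substate 1 on this log2 scale. A probe was measured when the scanner marked it well above background, and a gene value is the mean over its probes measured on both arrays. Intensities, where they are given, are before this scaling, so their ratio is not the fold, which is taken after it. The error given after a difference is the scanner's own error model, which covers the reading of the array but neither the culture nor the sample preparation. Levels of different probes cannot be ranked against each other, since probes differ in how well they hybridise.

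Of the 50 probes 35 were measured on both arrays, 4 on the substate 1 array only, 0 on the substate 2 array only and 11 on neither. This left 28 genes with a value on both arrays, 2 with a probe on the substate 1 array only and 7 without a measured probe. The arrays themselves were close in depth, though the substate 1 array measured more probes in general. Of 58201 probes 55.6% were measured for substate 1, 52.8% for substate 2 and 29883 probes on both arrays. The 75th percentile of the intensity was 313.7 and 275.4, and 0 probes were saturated.

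**Figure D1:**
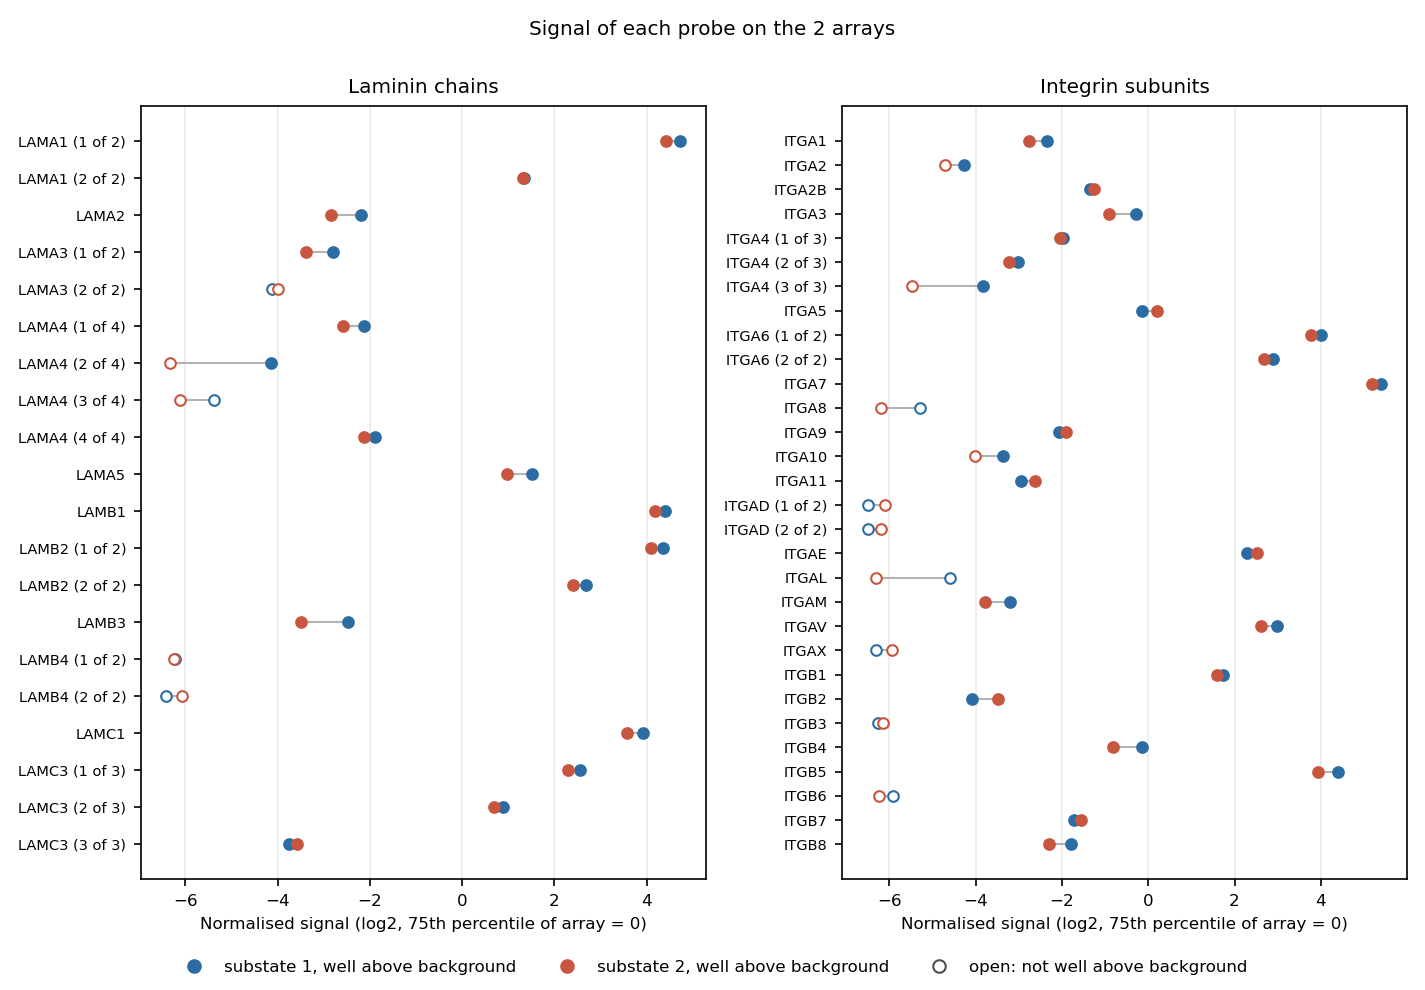
Normalised signal (log2, 0 is the 75th percentile of the array) of each of the 50 probes, laminin chains on the left and integrin subunits on the right, with the substate 1 array in blue and the substate 2 array in red. Filled points were well above background and open points were not; every laminin chain with a measured value has at least 1 probe whose red point lies left of the blue one, and the open pairs at the far left are probes without a measurement.

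Most laminin and integrin genes were lower in substate 2, and by less than 2-fold. Of the 28 genes with a value on both arrays 21 (75%) lay below 0 and 7 above, whereas 40.2% of the 16001 genes measured in all lay below 0 and 59.8% above. The median over all genes was 0.084 with quartiles of -0.16 and 0.28. The median was -0.34 over the 10 measured laminin chains, -0.18 over the 12 alpha subunits and -0.31 over the 6 beta subunits. With another background correction (normexp, fitted to the median spot intensities with an offset) these medians were -0.21, -0.039 and -0.19, so that of the alpha subunits was near 0. At a limit of 2-fold, 1 of the 39 probes measured on at least 1 array was lower in substate 2, that of LAMB3, against 1.67% of 33166 probes in all, and 0 were higher, against 1.55%. At 1.5-fold 7 probes (17.9%) were lower, those of LAMA2, LAMA3, LAMB3, ITGA3, ITGA10, ITGAM and ITGB4, against 7.64% of all probes. At the same limit 1 probe (2.56%), that of ITGB2, was higher, against 6.03%. Under normexp LAMA2, LAMA3, LAMB3, ITGA3, ITGAM, ITGB4 and ITGB2 each differed by less than 1.5-fold. ITGA10, which was not measured on both arrays, has no normexp value here.

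**Figure D2:**
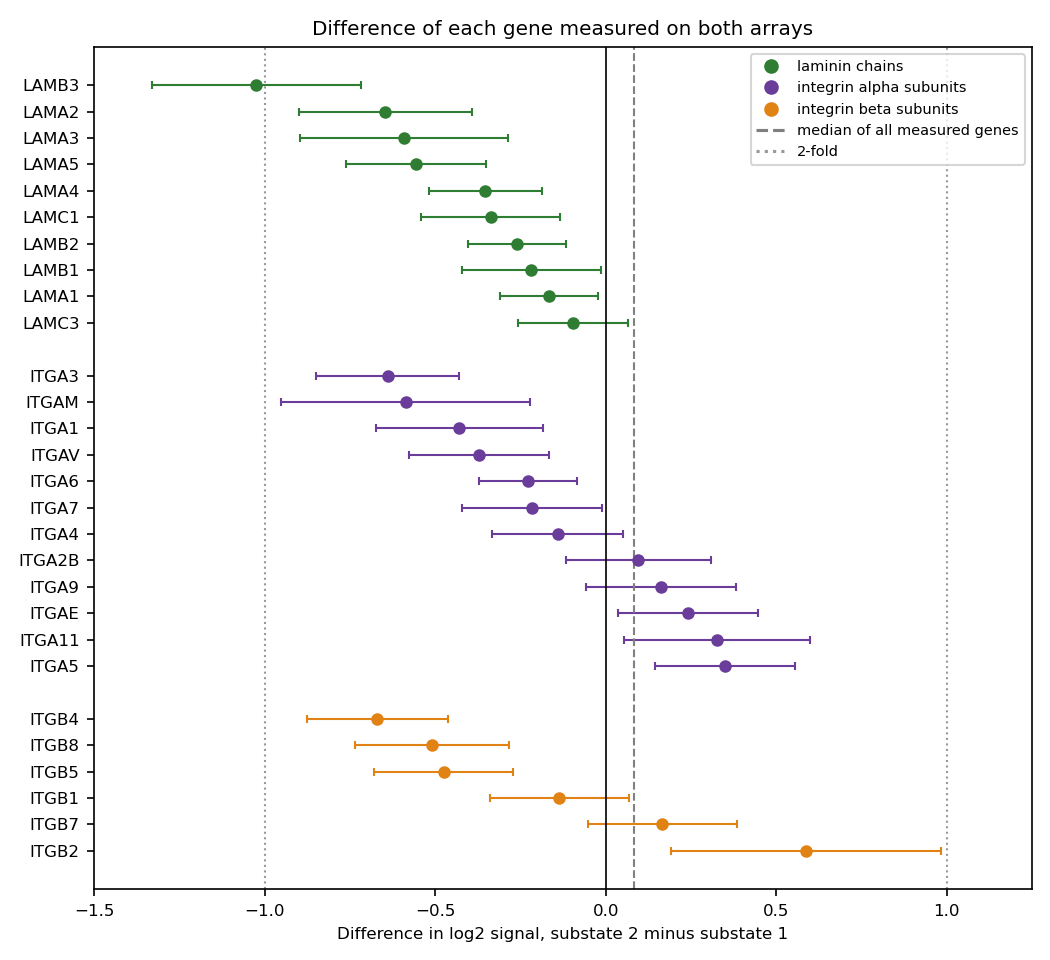
Difference in log2 signal (substate 2 minus substate 1) of the 28 genes measured on both arrays, ordered within each family; bars are 1 scanner error to each side, the solid line is 0, the dashed line is the median of all 16001 measured genes (0.084) and dotted lines mark 2-fold. All 10 laminin chains lie left of 0, the alpha subunits run from -0.64 to 0.35 and the beta subunits from -0.67 to 0.59.

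Every one of the 10 measured laminin chains was lower in substate 2, with differences from -1.02 to -0.10. The 5 alpha chains had a median of -0.56, the 3 measured beta chains of -0.26 and the 2 gamma chains of -0.22. The alpha chain carries the globular domains that integrins and dystroglycan bind, and the beta and gamma chains complete the coiled trunk of the trimer.

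LAMA5 and LAMA1 are the alpha chains known from early embryos and pluripotent cells, and LAMA5 is the chain of the laminin that such cells lay down. The LAMA5 probe read 1.53 in substate 1 and 0.97 in substate 2 on the log2 scale, from unscaled intensities of 904 and 539, and was 1.47-fold lower after scaling (difference -0.56 ± 0.20). Of the LAMA1 probes, the brighter read 4.73 and 4.42 and the other 1.35 and 1.32, which gave differences of -0.31 and -0.027 and a gene value of -0.17 ± 0.14. The LAMA1 probes went the same way but only 1 of them by more than its scanner error of 0.20.

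LAMB1 and LAMC1 are the beta and gamma chains most laminins share. LAMB1 read 4.40 in substate 1 and 4.18 in substate 2 (difference -0.22 ± 0.20), and LAMC1 read 3.91 and 3.58 (-0.34 ± 0.20). LAMB2, the beta chain of synaptic and kidney laminins, had a pair of probes that read 4.35 and 4.10, and 2.68 and 2.41. The LAMB2 probes differed by -0.25 and -0.27 and so lay within 0.016 of each other, where the median spread between probes of a gene was 0.18 over 4236 genes. These chains were lower in substate 2 by 1.16-fold to 1.26-fold, and the dimmest of their probes still had intensities of 2012 and 1466.

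LAMA3 and LAMB3 are chains of the laminin that anchors the epidermis and other epithelia, and both were dim. LAMB3 read -2.47 in substate 1 and -3.49 in substate 2, an unscaled intensity of 56.7 against 24.5. It was 2.03-fold lower (-1.02 ± 0.31), the largest difference among the 28 genes, and 0.937% of all measured genes lay at or below it. LAMA3 read -2.79 and -3.38 with the probe measured on both arrays (-0.59 ± 0.30, 1.51-fold lower), while its other probe was measured on neither. The LAMB3 value sits on the 2-fold limit: it ranged from -1.02 to -0.97 under the 4 scalings tried (75th percentile, median, quantile and loess), so that it passed the limit under the first alone, and it was -0.26 under normexp. LAMA3 was -0.052 under normexp.

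LAMA2 is the muscle chain that binds dystroglycan, and LAMA4 is the chain of blood vessel and mesenchymal laminins. LAMA2 read -2.20 in substate 1 and -2.84 in substate 2 (-0.65 ± 0.25, 1.56-fold lower). LAMA4 had 4 probes, of which the pair measured on both arrays read -2.13 and -2.59, and -1.88 and -2.13, for a gene value of -0.35 ± 0.17. Another LAMA4 probe was measured in substate 1 only, at -4.14, and was at least 1.04-fold lower in substate 2, and the last was measured on neither array. Under normexp LAMA2 was -0.17 and LAMA4 -0.044, still below 0 but smaller.

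LAMC3, a gamma chain described in the brain, retina and skin, was the laminin with the smallest difference (-0.10 ± 0.16) and the only member with several measured probes that did not share a direction. Its probes read 2.56 and 2.29, 0.90 and 0.70, and -3.75 and -3.57, with differences of -0.27, -0.20 and 0.18, and the dimmest probe differed by less than its scanner error of 0.39. Among the 6 genes with several measured probes, the probes of the other 5 (LAMA1, LAMA4, LAMB2, ITGA4 and ITGA6) each went one way. LAMB4, a beta chain of narrow expression, was measured on neither array with either of its probes.

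Epithelial marker genes were lower in substate 2 along with the laminins. All 5 of the genes CDH1, GRHL2, EPCAM, ESRP2 and ESRP1 were measured on both arrays, with a median of -0.80 and summed intensities of 39629 and 18359. CDH1, which encodes E-cadherin, read 4.91 and 3.44 (-1.47, 2.78-fold lower), and GRHL2, a transcription factor of epithelial cells, read 0.15 and -0.97 (-1.12, 2.18-fold lower). EPCAM, an adhesion protein of epithelial and pluripotent cells, differed by -0.80, and the splicing factors ESRP2 and ESRP1 by -0.71 and -0.55. The part of this list in the laminin differences was not tested. In bulk RNA such as this, fewer cells that express a gene and less of its RNA per cell cannot be told apart.

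The E-box CAGGTG, which reads CACCTG on the other strand and which the epithelial repressor ZEB1 is known to bind, was looked for on both strands of the promoter windows in RefSeq (GRCh38.p14), each of 250 bases before and 50 after a start site. LAMA1, LAMC3, ITGA3, ITGA7, ITGA9, ITGAD, ITGAL, ITGAX, ITGB2, ITGB3 and ITGB4 had no such window and were not searched. The other 26 of the 37 genes had such a window. The letters were in 8 of their 33 windows (24.2%) against 20.6% of all 35116 windows, a share near that of promoters in general. The genes with a match were LAMA3, LAMA5, LAMB3, LAMB4, ITGA6, ITGA11, ITGB5 and ITGB6. The 250 bases before the start are shown for 4 of them, the laminin chains with a match and a measured value and the laminin receptor subunit ITGA6, to show where the letters lie relative to the start. Each runs 5′ to 3′ along its gene, and capitals mark the matched letters. LAMB3 is at chr1:209652426-209652675 on the minus strand, LAMA3 at chr18:23872770-23873019 on the plus strand, LAMA5 at chr20:62367313-62367562 on the minus strand and ITGA6 at chr2:172427086-172427335 on the plus strand. The match begins 218 bases upstream of the start in LAMB3, 73 in LAMA3 and 201 in LAMA5, and ITGA6 holds a pair of matches 136 and 46 bases upstream.
LAMB3: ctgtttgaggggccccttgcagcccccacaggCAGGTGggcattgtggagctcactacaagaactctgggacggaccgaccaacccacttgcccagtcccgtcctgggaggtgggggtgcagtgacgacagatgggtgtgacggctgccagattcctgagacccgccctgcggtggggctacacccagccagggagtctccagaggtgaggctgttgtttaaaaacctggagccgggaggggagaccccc
LAMA3: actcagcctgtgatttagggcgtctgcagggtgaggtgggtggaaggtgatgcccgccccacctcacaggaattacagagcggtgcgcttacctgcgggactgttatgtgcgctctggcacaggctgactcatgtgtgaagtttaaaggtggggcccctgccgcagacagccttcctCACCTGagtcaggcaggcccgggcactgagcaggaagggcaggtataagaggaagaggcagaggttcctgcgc
LAMA5: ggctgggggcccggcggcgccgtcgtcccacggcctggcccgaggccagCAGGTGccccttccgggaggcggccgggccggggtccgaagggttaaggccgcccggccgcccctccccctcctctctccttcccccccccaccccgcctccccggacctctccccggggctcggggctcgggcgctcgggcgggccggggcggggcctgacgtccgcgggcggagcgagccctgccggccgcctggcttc
ITGA6: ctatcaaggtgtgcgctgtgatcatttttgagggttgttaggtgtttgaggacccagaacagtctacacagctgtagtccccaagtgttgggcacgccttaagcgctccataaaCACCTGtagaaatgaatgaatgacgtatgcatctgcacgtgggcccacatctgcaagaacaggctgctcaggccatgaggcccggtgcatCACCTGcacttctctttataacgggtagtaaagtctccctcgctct
LAMB3 has further windows at other start sites without a match, as has ITGA6. The letters are a description of these windows and not evidence that a protein binds there.

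The integrin subunits that bind laminin were all lower in substate 2. The 5 of them, ITGA3, ITGA6, ITGA7, ITGB1 and ITGB4, had a median of -0.23 and ranged from -0.67 to -0.14. ITGA6 pairs with ITGB1 in the main laminin receptor of pluripotent stem cells and with ITGB4 in the hemidesmosome, the junction that ties epithelial cells to the basement membrane.

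ITGB4 read -0.15 in substate 1 and -0.82 in substate 2, an unscaled intensity of 282 against 156, and was 1.59-fold lower (-0.67 ± 0.21). ITGA3, whose product binds the laminins with LAMA3 or LAMA5, read -0.28 and -0.92 and was 1.56-fold lower (-0.64 ± 0.21). These were the largest differences among the integrins with a value below 0, and they were -0.54 each under normexp. The epithelial markers above were lower on the same arrays, and their part in the ITGB4 and ITGA3 values was not tested.

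ITGA6 had a pair of probes, the brighter at intensities of 5035 and 3739 and the other at 2321 and 1757, with differences of -0.24 and -0.21 that lay within 0.027 of each other (gene value -0.23 ± 0.14, 1.17-fold lower). ITGA7, best known as the laminin receptor of muscle, read 5.40 and 5.18 (-0.22 ± 0.20, 1.16-fold lower). ITGB1, the common partner of most matrix-binding alpha subunits, was printed on 10 spots per array. It read 1.72 in substate 1 and 1.59 in substate 2 (-0.14 ± 0.20). The SD between its spots was 0.037 and 0.038, which gives an SE of the difference between arrays of 0.017. The spot error of ITGB1 is far smaller than its difference, but this error arises within 1 array and says nothing about other cultures. The difference of ITGB1 was smaller than its scanner error of 0.20.

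The receptors for vitronectin, the coat on which the line was kept before Matrigel, are ITGAV with ITGB5 or ITGB3. ITGAV was also printed on 10 spots and read 2.99 and 2.62, so that it was 1.29-fold lower (-0.37 ± 0.20, SE between spots 0.020). ITGB5 read 4.40 in substate 1 and 3.93 in substate 2, an unscaled intensity of 6626 against 4184, and was 1.39-fold lower (-0.48 ± 0.20). ITGB8, a partner of ITGAV in the activation of latent TGF-beta, read -1.78 and -2.29 and was 1.42-fold lower (-0.51 ± 0.23, or -0.25 under normexp). ITGB3 and ITGB6, the remaining partners of ITGAV listed, were measured on neither array. Thus ITGAV and both of its measured partners besides ITGB1 were lower in substate 2, as was ITGB1.

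ITGA5, the alpha subunit of the fibronectin receptor, went the other way. It read -0.14 in substate 1 and 0.21 in substate 2, an unscaled intensity of 285 against 319, and was 1.27-fold higher (0.35 ± 0.21). The difference was 0.33 to 0.39 under the 4 scalings and 0.40 under normexp. ITGA2B, the platelet fibrinogen receptor that also binds the RGD peptide, read -1.36 and -1.26 (0.10 ± 0.21), within its scanner error. ITGA8, a kidney RGD receptor, was measured on neither array.

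The alpha subunits that bind collagen had few measurements, and they were split. ITGA1 read -2.34 in substate 1 and -2.77 in substate 2 (-0.43 ± 0.24, 1.35-fold lower, or -0.077 under normexp), and ITGA11 read -2.95 and -2.62 (0.33 ± 0.27). ITGA10 was measured in substate 1 only, at -3.37 against -4.01. Its unmeasured signal lay above the lowest that counted as well above background on the substate 2 array. The 1.55-fold lower value is therefore its plain difference (-0.64 ± 0.43) and no lower bound. ITGA2 was also measured in substate 1 only, at -4.27 against -4.70, which is too near the background for a fold. ITGA4, which binds fibronectin and VCAM1, read -1.98 and -2.04, and -3.02 and -3.24, for a gene value of -0.14 (-0.0098 under normexp), and its dimmest probe was measured in substate 1 only and was at least 1.28-fold lower. ITGA9, the relative of ITGA4 that binds tenascin, read -2.07 and -1.90 (0.16 ± 0.22).

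Of the integrins known from leukocytes ITGAD, ITGAL and ITGAX were measured on neither array, and the 4 that had a value had a median of 0.20. ITGB2, the beta subunit common to the leukocyte adhesion receptors, read -4.08 in substate 1 and -3.49 in substate 2, an unscaled intensity of 18.6 against 24.5, and differed by 0.59 ± 0.39, or by 0.34 under normexp. ITGAM, a partner of ITGB2, went the other way at -3.20 and -3.79 (-0.59 ± 0.37), or by -0.069 under normexp, and both probes were dim. ITGB7 read -1.71 and -1.55 (0.17 ± 0.22), and ITGAE, its partner, read 2.28 and 2.52 (0.24 ± 0.20, 1.18-fold higher). Among 5 leukocyte markers CD53 and LAPTM5 were measured on neither array. The other 3, PTPRC, CORO1A and SPI1, had values of 0.088, 0.74 and -0.10, with summed intensities over the list of 354 and 420.

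**Figure D3:**
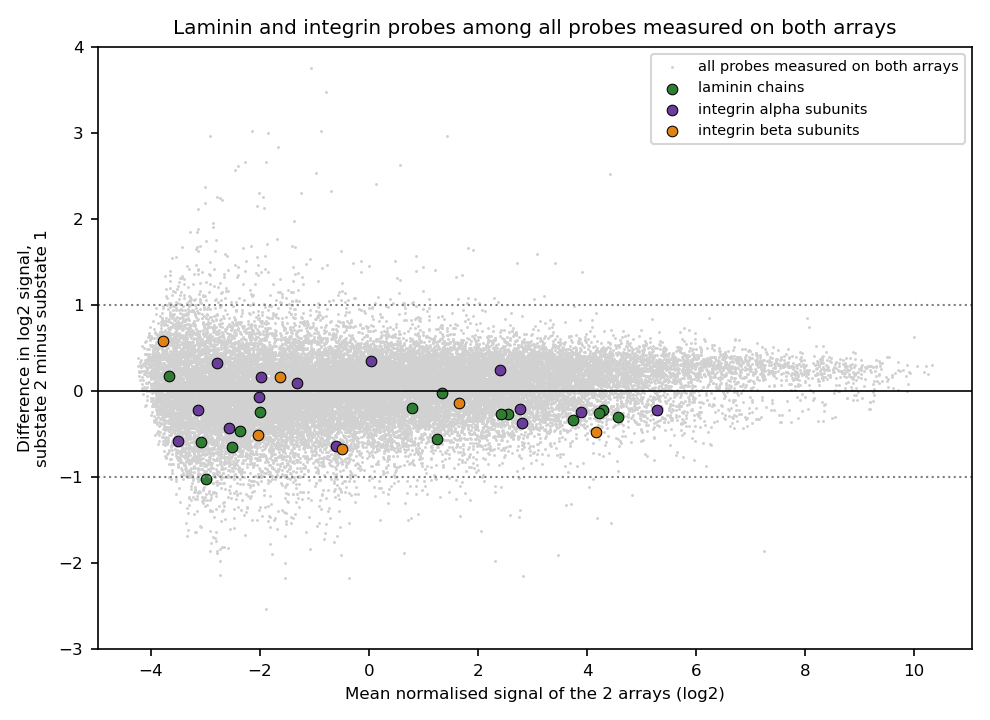
Difference in log2 signal against mean normalised signal (log2) for all 29883 probes measured on both arrays in grey, with the 35 probes of laminin chains, alpha subunits and beta subunits in colour; dotted lines mark 2-fold, and 1 probe lies outside the vertical axis, which runs from -3 to 4. LAMB3 is the only coloured point at a dotted line, and of the coloured points with a mean signal above 2 all but ITGAE lie below 0.

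The size of a difference has to be read against signal. The scanner error of a difference had a median of 0.21 over all probes measured on both arrays. Of the 28 genes 8 differed by more than 2 scanner errors, namely LAMA2, LAMA4, LAMA5, LAMB3, ITGA3, ITGB4, ITGB5 and ITGB8. All 8 were lower in substate 2. The share of all measured genes past this limit is not given here, so the count cannot be set against the arrays as a whole. LAMA2, LAMA4, LAMB3 and ITGB8 were the dim ones among these 8, with intensities under 100 on both arrays. They were also the ones whose differences were smaller under normexp by more than 1.5 times. The offset added in normexp shrinks the log2 difference of a dim probe by arithmetic. By the Z-score of the study's methods, the difference minus the mean of all probes over their SD, a limit of 2 corresponded to 2.53-fold higher or 2.29-fold lower. At or below -2 lay 3 of the 50 probes, against 3.3% of all 58201, and 0 lay at or above 2, against 3.03%. They were a LAMA4 probe (Z of -3.59), an ITGA4 probe (-2.70) and the ITGAL probe (-2.79). None of these 3 was measured on both arrays, and the ITGAL probe was measured on neither. LAMB3 had a Z of -1.73 over all probes and of -2.63 when the mean and SD were taken over probes measured on both arrays.

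**Figure D4:**
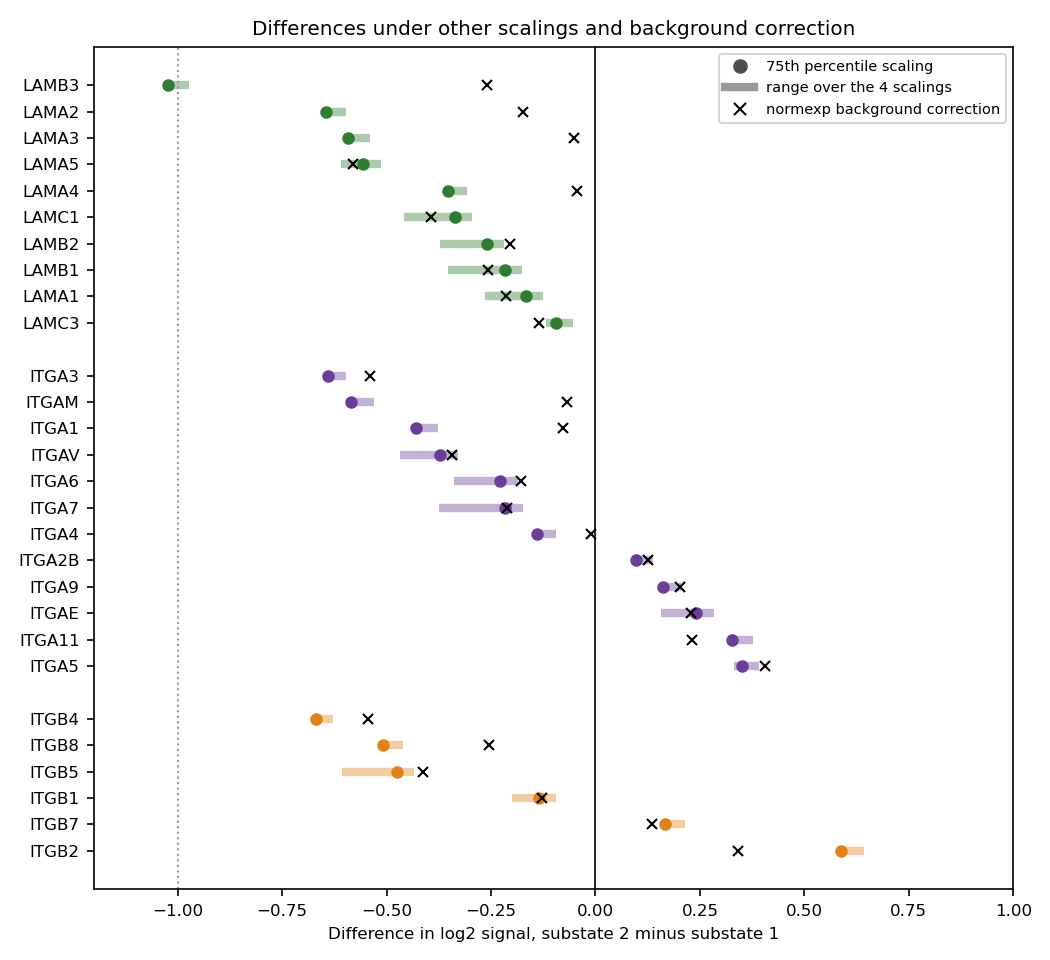
Difference in log2 signal (substate 2 minus substate 1) of the 28 genes under the 75th percentile scaling (points), over the 4 scalings tried (bars) and under normexp background correction (crosses), with colours by family as in the plot of gene differences. No gene crosses 0 under any of them, while LAMB3, LAMA2, LAMA3, LAMA4, ITGA1, ITGA4, ITGAM, ITGB2 and ITGB8 move towards 0 by more than 1.5 times under normexp.

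Genes that build the basement membrane with laminin were lower too. Of 19 such genes 17 were measured on both arrays, 15 below 0 and 2 above, where 40.2% of all measured genes lay below 0. They had a median of -0.44, and 1 passed 2-fold lower, against 1.07% of all measured genes. The median was -0.49 to -0.29 over the settings. NID1, which links laminin to type IV collagen, read 2.72 and 2.23 (-0.49), and the proteoglycans AGRN and HSPG2 differed by -0.57 and -0.50. NID1, AGRN and HSPG2 were chosen after their values were seen, as the direct binding partners of laminin. COL4A4, a type IV collagen chain, read -0.88 and -1.88 (2.00-fold lower, on the limit itself), and FRAS1 and FREM2, which act together between epithelium and mesenchyme, differed by -0.87 and -0.76. The genes above 0 were TINAGL1 (0.45) and COL4A6 (0.11).

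The machinery of integrin adhesion lay near the genes overall. The list holds cytoplasmic proteins and the membrane tetraspanins CD9, CD81 and CD151. All 39 genes listed were measured on both arrays, 14 below 0 and 25 above, where 40.2% of all measured genes lay below 0, and 18 lay below the median of all genes. They had a median of 0.15 (0.063 to 0.19 over the settings), and none passed 2-fold either way, where 1.07% of all genes were lower and 0.931% higher. The lowest were the actin linker VCL (-0.36), the tetraspanin CD9 (-0.30) and the adaptor LIMS1 (-0.30). The highest were FERMT3 (0.73), the kindlin of blood cells, TNS2 (0.64), a tensin, and the kinase SRC (0.50). TLN1, the talin that activates integrins by binding the beta subunit, read 0.55 and 0.94 (0.39), and CD151, the tetraspanin partner of laminin-binding integrins, read 5.34 and 5.10 (-0.24). TLN1 and CD151 were chosen after their values were seen.

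A list of laminin receptors other than integrins was split around 0. The list also holds DDR1, a collagen receptor, and SGCB and SGCE, partners of dystroglycan, so its counts do not describe laminin receptors alone. Of 12 listed 10 were measured on both arrays, 6 below 0 and 4 above, where 40.2% of all measured genes lay below 0. Of these genes 8 lay below the median of all genes. Their own median was -0.021 and ranged from -0.099 to 0.021 over the settings. BCAM, a receptor for laminins with LAMA5, read -1.85 and -2.63 (-0.78), the collagen receptor kinase DDR1 differed by -0.52, and DAG1, which encodes dystroglycan, read 3.39 and 2.97 (-0.42). The syndecans SDC3 and SDC1 were higher by 0.56 and 0.30, and the glypican GPC1 by 0.062.

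Of 27 other integrin ligands 18 were measured on both arrays, 15 below 0 and 3 above, where 40.2% of all measured genes lay below 0. Their median was -0.27 (-0.28 to -0.12 over the settings). VTN, which encodes vitronectin, read -3.35 and -4.11 (-0.76), THBS2 differed by -0.89 and CCN1, a matricellular protein that ITGAV binds, by -0.81. The fibrinogen chain FGG was 2.05-fold higher (1.03) at a dim level of -3.62 and -2.59. It was the 1 gene of the list past 2-fold, where 0.931% of all measured genes were 2-fold higher. TGFB1 (0.68) and FBN2 (0.12) were also above 0. FN1, the fibronectin gene, was measured in substate 1 only, at -3.56 against -4.64, and was at least 1.55-fold lower by the probe matched here. FN1 was added after its values were seen, because fibronectin is the ligand of ITGA5.

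**Figure D5:**
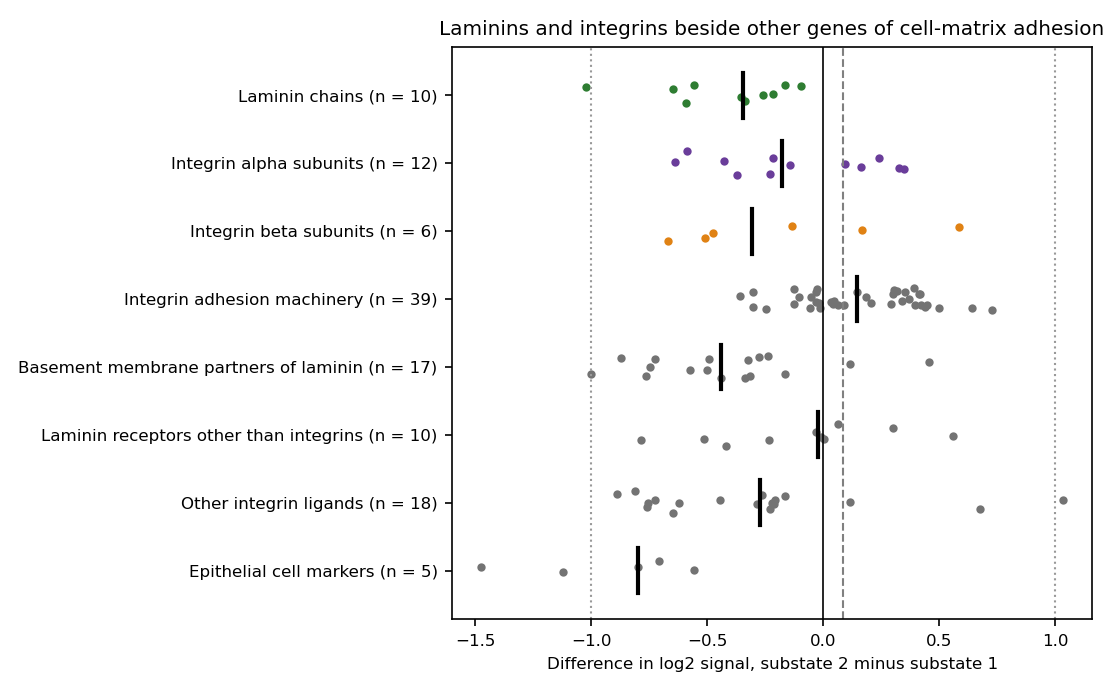
Difference in log2 signal (substate 2 minus substate 1) of each measured gene in the 3 groups of laminin and integrin genes (coloured), in 4 lists of other adhesion genes and in the epithelial marker list (grey), with n genes each; black bars are medians, the solid line is 0, the dashed line is the median of all measured genes (0.084) and dotted lines mark 2-fold. Basement membrane partners (median -0.44) lie to the left as the laminin chains do (-0.34), and the adhesion machinery (0.15) lies near the median of all genes.

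The labelled cell type was checked against its markers. All 6 pluripotency genes named on the arrays were measured on both, 5 above 0 and PODXL below, with a median of 0.23 and summed intensities of 388003 and 369955. Of the mesenchymal markers COL3A1, DCN, LUM and POSTN were measured on neither array, and the 4 measured had a median of -0.30. SOX17 and GATA6 of the endoderm list, PAX6 of the neural list and PECAM1 of the endothelial list were measured on neither array. The same held for GATA3, CDX2 and HAND1 of the trophoblast list. SOX1 of the neural list and CGA of the trophoblast list were measured in substate 2 only, at least 1.71-fold and 2.12-fold higher. A GATA4 probe of the endoderm list was measured in substate 1 only and was at least 1.03-fold lower in substate 2. The 3 neural genes measured on both arrays had a median of 0.47 and the 2 such endoderm genes of 0.62. The 2 trophoblast genes measured on both had a median of 0.17 and the 4 endothelial genes of -0.33. The part of these lists in the laminin and integrin differences was not tested.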

How the data were processed

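Total RNA of H9 cells (1 array per substate) was labelled with Cy3 and hybridised to Agilent SurePrint G3 arrays. The authors deposited scanner output holding an intensity per spot. Per the file headers, it was made by Feature Extraction 11.5.1.1 with protocol GE1_1105_Oct12, which subtracted the background and flagged spots, and the array was annotated on hg19. They also deposited a matrix of log2 values, which departed from the values computed here, over 58201 probes and after 1 constant shift per array, by at most 1.73e-06. Its columns had medians of -3.57 and -3.62. Both arrays lay on the same slide, at different positions.

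Outlier spots (71 and 101) were left out, intensities were floored at 1, which touched 0 spots, and log2 values were averaged per probe and shifted by the 75th percentile of the array. Z-scores followed the study's methods, with the mean and SD over all probes and a limit of 2. Gene names came from matching the accessions of the array design to a RefSeq table (GRCh38.p14), in which 31104 probes (53.4%) were found. A gene value was the mean over probes well above background on both arrays. For a probe measured on 1 array only, the fold is a lower bound, written as at least N-fold, in which the unmeasured side took the lowest signal that counted as well above background on its array, or its own signal where that was higher. In the latter case, that of ITGA10, the fold is the plain ratio and no lower bound. The scanner error was the software's error of each intensity, carried to log2. For probes with 10 spots an SE from the spots is given as well. The number of arrays limits the precision, and no test was made.

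The laminin and integrin genes, the other lists and the E-box were chosen with earlier results of these data known. Every gene of the 37 is accounted for, and those measured on at least 1 array are given with their probe values. From each list of other adhesion genes the 3 measured genes with the largest difference in each direction are named. The alternatives tried were median centring, quantile scaling, loess (span 0.3), normexp (offset 50, on the median spot and background intensities), the deposited matrix, outlier spots kept, a limit of 1.5-fold, other sets of probes, the brightest probe of a gene and bounds entered as values. Python 3.11.15 (numpy 2.4.6, pandas 2.3.3, statsmodels 0.14.6) and limma 3.58.1 in R 4.3.3 were used, and the scripts were tested on simulated data.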

Additional observations from a re-analysis of the deposited data

How the results depend on the processing

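No paired analysis was possible because the labels give 1 sample of either substate. All 28 genes measured on both arrays kept their sign under the 6 alternatives of scaling, background correction, outlier spots and deposited matrix. Of 168 values by gene and alternative 29 moved by more than the spot SD of 0.071 and 0 reversed. Keeping outlier spots changed no member value. The deposited matrix and median centring each shifted every gene by 1 constant smaller than this SD. All the moves therefore came from quantile, loess and normexp. All 10 laminin chains stayed below 0 and below the median of all genes in each, and that median ranged from 0.035 with loess to 0.13 with median centring. The count of probes 2-fold lower was 1 and became 0 with median centring, with quantile normalisation, with loess and with normexp; LAMB3 was as close to 0 as -0.97 with the scalings and was -0.26 with normexp, and the median of the laminin chains minus that of all genes went from -0.43 to -0.29 with normexp. At 1.5-fold the count was 7 lower and 1 higher. The count past the Z-score limit was 3, against 6 with normexp and 1, LAMB3, over probes measured on both arrays. With normexp the medians were -0.21 for laminin chains, -0.039 for alpha subunits and -0.19 for beta subunits. An alternative added after seeing the data kept only probes with an intensity of at least 100 on both arrays. The medians were then -0.25 for laminin chains, -0.22 for alpha subunits and -0.48 for beta subunits. The beta median rested on ITGB1, ITGB4 and ITGB5 alone and is the ITGB5 value. Naming probes by a gene name column was not run, since the columns used here hold none. Dim probes limit the result: the median spot SD of a difference was 0.22 at intensities under 200 (14 probes) and 0.070 at 200 or more (277 probes). The normexp offset is a constant added to the intensities of both arrays before log2. By arithmetic it shrinks the log2 difference of a dim probe, and that of a bright probe less. Smaller normexp differences of dim probes are therefore partly built in. Normexp was not run without the offset, so its share in these shifts was not tested. The cause of the quantile and loess shifts was not tested either.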

Other observations

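Noncoding RNAs that the array design names after these genes were measured on few probes. Of 34 such probes 13 were measured on both arrays, 3 on 1 array and 18 on neither. Among the 13, 6 lay below 0 and none differed by 2-fold. The largest difference was that of lnc-ITGA7-1, which read -3.77 in substate 1 and -2.85 in substate 2 (0.92, 1.89-fold higher), whereas ITGA7 itself was lower by 1.16-fold. The 3 probes of ITGA9-AS1, the antisense RNA of ITGA9, differed by -0.14, 0.25 and 0.11, and the probe of ITGB8-AS1 by 0.14 where ITGB8 differed by -0.51. The probes of lnc-ITGA11-2 did not go one way: 1 was at least 1.62-fold higher, 1 at least 1.33-fold lower, 1 differed by 0.085 and 1 was measured on neither array. The pair of probes of lnc-ITGAL-2 differed by 0.17 and -0.51. All of these rest on 1 array per substate, and no explanation was tested.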
